A study of Mus musculus with 21 samples.

Results

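The genes described here carry simple sugars across the membranes of the intestinal epithelium or act early in fructose metabolism. The 9 genes Slc5a1, Slc5a4a, Slc5a4b, Slc2a2, Slc2a5, Slc37a2, Slc37a4, Khk and Fbp1 were taken by name, with every array probe that the platform annotation gives to 1 of them alone, out of 19057 genes with such a probe. RNA of small intestine from mouse embryos at E18.5, shortly before birth, was hybridised to Illumina WG6_V2 bead arrays, 1 array per sample. There were 11 arrays labelled Prdm1+/+, whose embryos had 1 CA allele and 1 wild-type allele of Prdm1 (Prdm1CA/+), and 10 labelled Prdm1-/-, which had the Villin-Cre transgene with a CA and a BEH allele (Villin-Cre, Prdm1CA/BEH). Prdm1 encodes Blimp1, a zinc finger protein that represses transcription, and the Villin promoter drives Cre recombinase in the intestinal epithelium. The mothers of both groups were homozygous for the CA allele and carried the R26R reporter allele, and the strain background was mixed. Villin-Cre is named for the mutants only, so the transgene and the Prdm1 alleles cannot be told apart as sources of a difference. In whole tissue, fewer cells of a type and less RNA per cell cannot be told apart either.

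Glucose and galactose enter enterocytes at the brush border with sodium, through the carrier SGLT1, and fructose enters through GLUT5, while GLUT2 passes all of these sugars on to the blood. Inside the cell ketohexokinase phosphorylates fructose, and triokinase acts further along its breakdown, on glyceraldehyde. Fructose 1,6-bisphosphatase and the glucose 6-phosphate carrier of the endoplasmic reticulum act on the path from trioses back to glucose. In the suckling mouse the gut receives mostly lactose, and the handling of sucrose and fructose is known to mature at weaning.

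The arrays detected 14596 to 16085 probes each, with means of 15294 ± 479 (SD, n = 11) in the labelled controls and 15250 ± 537 (SD, n = 10) in the labelled mutants. A Prdm1 probe was detected on 0 of 11 control arrays and on 10 of 10 mutant arrays, at least 7.31-fold higher (limma adjusted p = 1.64e-12). That goes against a plain loss of the transcript. The place of this probe in the gene was not used here, so the deletion itself is unchecked and all directions rest on the labels. Of 7 enterocyte markers tested, Vil1 and Krt20 rose and 0 fell, with a summed log2 intensity of 76.6 to 80.5 in the labelled controls and 79.2 to 82.7 in the labelled mutants. Fabp1 and Fabp2, which also mark enterocytes, were not detected on any array.

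Of the 9 genes 8 could be tested, and 4 of those passed the threshold of an adjusted p under 0.05. Slc5a4b, Slc5a4a and Khk rose in the labelled mutants and Slc37a2 fell. Over all 9961 genes tested, 23.2% passed, 10.6% as rises and 12.6% as falls. That balance depends on the scaling: among probes 1580 rose and 1905 fell, and with median scaling in place of quantile normalisation 729 rose and 1906 fell, while the same count of 3 rises and 1 fall among the 8 genes was found. Each of these 4 genes had groups of arrays that did not overlap, which held for 4.4% of all genes. The 4 others, Slc5a1, Slc2a2, Slc37a4 and Fbp1, did not pass. Values are log2 intensity after background correction and quantile normalisation, a difference is labelled mutants minus labelled controls with its standard error (SE), and each adjusted p comes from limma with Benjamini-Hochberg adjustment over 16641 probes.

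**Figure D1:**
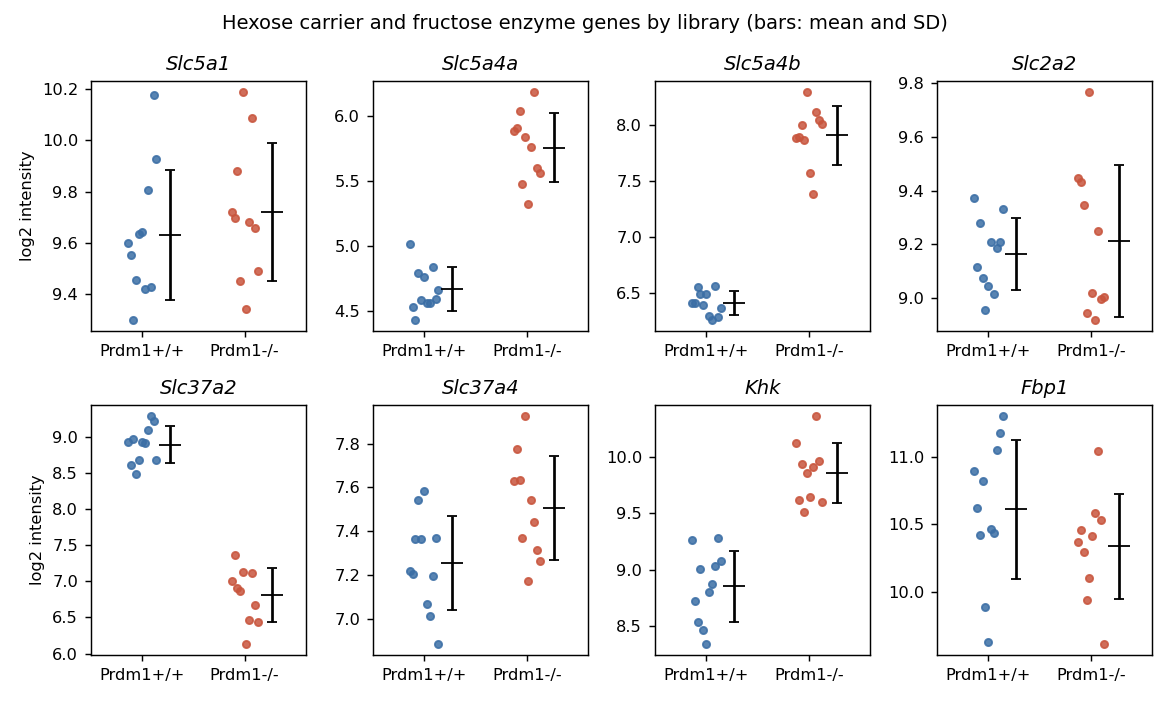
Log2 intensity (vertical axes, each with its own range) of the 8 genes tested, for 11 Prdm1+/+ arrays in blue and 10 Prdm1-/- arrays in red, by the brightest probe of each gene. Points are arrays and bars show mean and SD. The groups are separate for Slc5a4a, Slc5a4b, Slc37a2 and Khk, and overlap for the other genes.

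Promoters are shown for the neighbouring pair that rose, for the pair whose values moved together from array to array, and for the gene that fell. They come from RefSeq on the mouse build GRCm38.p6, 250 bases before to 50 after the annotated start, and all 9 genes matched. Each is written 5′ to 3′ in the direction of its gene, with capitals for matches to 1 of 4 motifs.
Slc5a4a promoter, chr10:76147201-76147500, plus strand: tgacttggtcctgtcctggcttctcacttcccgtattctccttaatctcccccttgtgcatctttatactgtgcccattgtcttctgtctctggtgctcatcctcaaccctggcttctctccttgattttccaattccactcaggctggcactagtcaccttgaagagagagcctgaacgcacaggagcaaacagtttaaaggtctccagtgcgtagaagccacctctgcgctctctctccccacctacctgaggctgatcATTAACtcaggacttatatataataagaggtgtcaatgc
Slc5a4b promoter, chr10:76110969-76111268, minus strand: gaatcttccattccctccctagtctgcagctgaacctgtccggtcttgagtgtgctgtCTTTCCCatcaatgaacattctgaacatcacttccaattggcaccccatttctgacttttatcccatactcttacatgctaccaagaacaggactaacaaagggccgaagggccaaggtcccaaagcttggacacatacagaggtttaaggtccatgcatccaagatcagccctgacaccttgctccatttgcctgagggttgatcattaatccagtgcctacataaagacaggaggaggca
Khk promoter, chr5:30921309-30921608, plus strand: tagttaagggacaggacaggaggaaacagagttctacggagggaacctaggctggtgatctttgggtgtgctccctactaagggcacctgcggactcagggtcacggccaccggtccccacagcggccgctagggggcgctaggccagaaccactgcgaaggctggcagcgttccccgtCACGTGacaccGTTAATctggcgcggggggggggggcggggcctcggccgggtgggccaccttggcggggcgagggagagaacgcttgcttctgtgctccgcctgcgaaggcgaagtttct
Fbp1 promoter, chr13:62888233-62888532, minus strand: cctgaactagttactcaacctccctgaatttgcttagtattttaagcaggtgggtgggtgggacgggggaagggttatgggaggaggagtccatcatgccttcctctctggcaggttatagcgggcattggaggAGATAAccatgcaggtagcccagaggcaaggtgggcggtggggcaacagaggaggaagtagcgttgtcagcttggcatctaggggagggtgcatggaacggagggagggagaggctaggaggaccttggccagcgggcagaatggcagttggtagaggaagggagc
Slc37a2 promoter, chr9:37255689-37255988, minus strand: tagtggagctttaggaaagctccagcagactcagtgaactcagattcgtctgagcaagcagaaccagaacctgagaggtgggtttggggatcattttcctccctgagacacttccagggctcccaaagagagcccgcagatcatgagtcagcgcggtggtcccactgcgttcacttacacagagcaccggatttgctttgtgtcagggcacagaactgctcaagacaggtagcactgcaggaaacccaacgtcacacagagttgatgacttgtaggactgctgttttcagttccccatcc

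Both strands were searched for GNGAAAG, a core that Blimp1 is known to bind, and for the E-box CACGTG. The other motifs were GTTAAT, known as a half-site of HNF1 factors, and AGATAA, known to be bound by intestinal GATA factors. GNGAAAG matched the Slc5a4b promoter on the opposite strand, at position -192 from the start, and with it the promoters of Slc2a5 and Slc37a4. That is 3 of 9, against 22.6% of 32851 mouse promoters of the same length. The 9 are the first annotated promoter of each gene (Slc37a4 has 3), while the 32851 include every annotated promoter. CACGTG was found in Khk at position -71 and in Slc5a1 at -143. That motif is in 7.15% of all promoters. GTTAAT was in Khk at position -60 and on the opposite strand in Slc5a4a at position 11, behind the start. GTTAAT is in 7.1% of all promoters. AGATAA occurred in Fbp1 at position -116 and in 11.2% of all promoters. No match overlapped another, and the Slc37a2 window held none of the 4 motifs. These matches describe letters and not binding sites.

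The sodium-coupled carriers came first. Slc5a1 encodes SGLT1, the brush border carrier for glucose and galactose. Its log2 intensity ran from 9.30 over a median of 9.60 to 10.17 in the labelled controls and from 9.34 over 9.69 to 10.19 in the labelled mutants. The groups overlapped along almost their whole range. The difference was 0.09 ± 0.11, with a 95% interval of -0.14 to 0.32, and the limma adjusted p was 0.655. The interval leaves out a doubling or a halving of this probe's signal, on a scale where the added offset of 16 draws fold changes of dim probes towards 1.

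Slc5a4b and Slc5a4a are the mouse counterparts of human SLC5A4. The human protein, SGLT3, is known to respond to glucose with a change of membrane voltage while carrying little of it. Slc5a4b ran from 6.26 over 6.40 to 6.56 in the labelled controls and from 7.39 over 7.95 to 8.29 in the labelled mutants. Every labelled mutant lay above every labelled control, with an SD of 0.26 among the mutants and 0.11 among the controls. It rose 2.83-fold, a difference of 1.50 ± 0.09 (limma adjusted p = 8.89e-12), which put it 45th among all rises. Mutant 7 had the lowest and mutant 5 the highest value of that group.

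Slc5a4a ran from 4.43 over 4.59 to 5.01 in the labelled controls, where no array detected it, and from 5.32 over 5.80 to 6.19 in the labelled mutants, where all 10 did. The groups did not overlap. It was at least 1.56-fold higher in the labelled mutants, with a fitted difference of 1.09 ± 0.09 (limma adjusted p = 7.33e-09). It entered the test only through the mutants, so its part in the count above was given by the filter. Without background correction the difference was 0.54 (limma adjusted p = 5.96e-08). The genes lie next to each other on chromosome 10 with 0 protein-coding genes between them. Aligned end to end, their promoters were identical at 173 of 318 positions (54.4%), against 43.7% to 50.5% for the other 35 pairs among the 9 genes. The sequences of the probes were not used here, and probes of such close relatives can read each other's transcripts, so the pair may not be 2 independent measurements.

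The facilitative carriers follow. Slc2a2 encodes GLUT2, which passes glucose, galactose and fructose through the basal membrane. Its brightest probe ran from 8.96 over 9.19 to 9.37 in the labelled controls and from 8.92 over 9.13 to 9.77 in the labelled mutants. Of the labelled mutants 3 lay above every control and 2 below every control. The difference was 0.05 ± 0.09, with a 95% interval of -0.15 to 0.24 (limma adjusted p = 0.792).

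Slc2a2 had 3 tested probes, and they did not vary alike. The second ran from 5.71 over 6.70 to 7.49 in the labelled controls and from 5.63 over 6.60 to 7.68 in the labelled mutants (-0.07 ± 0.24, limma adjusted p = 0.884). The third ran from 5.09 over 6.04 to 6.54 and from 5.14 over 5.77 to 6.61 (-0.08 ± 0.19, limma adjusted p = 0.839). Once the genotype means were removed, these dimmer probes followed each other over the 21 arrays (Pearson r = 0.95), and the brightest followed them less (r = 0.40 and r = 0.42). The dimmest probe stayed below detection on every array and was not tested. Among the labelled controls the range was 0.42 for the brightest probe, 1.78 for the second and 1.45 for the third.

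The largest pattern of variation within the genotypes, 32.3% of the variance, divided the libraries into a set of 10 (controls 1, 2, 3, 4, 7 and 9 with mutants 1, 2, 6 and 7) and a set of 11, each with both genotypes. The dimmer Slc2a2 probes moved with that division. The second probe averaged 0.40 above its genotype mean in the first set and -0.36 in the second set, and the third averaged 0.36 and -0.32. The brightest probe averaged 0.02 and -0.02. Slc5a1 moved with the division in the other direction, averaging -0.15 in the first set and 0.13 in the second. Among the labelled controls its sets did not overlap (9.30 to 9.60 and 9.63 to 10.17). Among the labelled mutants they did (9.34 to 9.72 and 9.45 to 10.19). Arrays of the first set detected 14596 to 15241 probes and those of the second set 14914 to 16085. Whether probe position, RNA quality or another property of the libraries had a part in this was not tested.

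**Figure D2:**
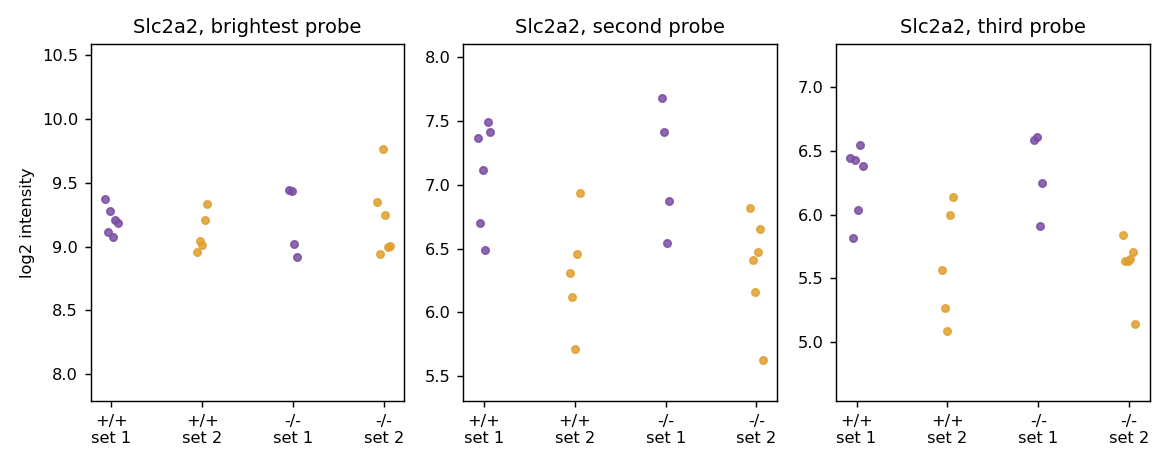
Log2 intensity (vertical axes, all of the same length) of the 3 tested Slc2a2 probes in Prdm1+/+ and Prdm1-/- arrays of the first set (purple) and the second set (orange). Points are arrays. The dimmer probes are higher in the first set in both genotypes, and the brightest is not, with averages 0.02 above and 0.02 below the genotype mean.

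Slc2a5 encodes GLUT5, the fructose carrier of the brush border. Its only probe stayed below detection on all 21 arrays, with means of 4.37 in the labelled controls and 4.34 in the labelled mutants, and was therefore not tested. No direction can be read from it, and whether the transcript was present below the detection limit of that probe is unknown.

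The SLC37 family exchanges sugar phosphates for phosphate, and its members here gave the only fall. Slc37a2 encodes a glucose 6-phosphate exchanger that is known to be abundant in macrophages. Its log2 intensity ran from 8.48 over 8.93 to 9.29 in the labelled controls and from 6.14 over 6.88 to 7.37 in the labelled mutants. The gap between the highest mutant, mutant 2, and the lowest control, control 4, was wider than the range of the labelled controls (0.81). That gap was narrower than the range of the labelled mutants (1.23). Slc37a2 fell 4.23-fold, a difference of -2.08 ± 0.13 with a 95% interval of -2.36 to -1.81 (limma adjusted p = 4.40e-11). This was the 8th largest fall of all genes tested. A second Slc37a2 probe was not detected on any array.

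Some immune cell markers were also lower in the labelled mutants. Of 7 markers on that list 5 were tested, of which Csf1r (-1.48), Lyz2 (-0.59) and Cd52 (-0.36) fell, Mrc1 (0.30) rose and Laptm5 (-0.18) did not pass. Their summed log2 intensity was 42.8 to 43.7 in the labelled controls and 39.5 to 41.8 in the labelled mutants, without overlap. Ptprc, the common leukocyte antigen, was not detected on any array. The summed liver markers were likewise lower, 49.8 to 58.8 in the labelled controls and 40.9 to 46.6 in the labelled mutants. Of the 6 liver markers tested 4 fell, and Alb, Apoh and Fgb were not detected on any array. The part of either list in the fall of Slc37a2 was not tested. Without controls 8, 9 and 11, whose summed liver markers were 54.9 to 58.8 against 49.8 to 53.4 in the other controls, Slc37a2 differed by -2.03.

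Slc37a4 encodes the carrier that brings glucose 6-phosphate into the endoplasmic reticulum, where the G6pc product turns it into glucose. It ran from 6.89 over 7.22 to 7.58 in the labelled controls and from 7.17 over 7.49 to 7.93 in the labelled mutants. The groups overlapped, with 4 labelled mutants above every control. The difference of 0.25 ± 0.10 did not pass (95% interval 0.05 to 0.45, limma adjusted p = 0.0727; two-sided permutation p = 0.0211 before any adjustment). It passed when control 4 (adjusted p = 0.0475), control 6 (0.0397) or mutant 6 (0.0389) was left out of the limma fit.

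Khk encodes ketohexokinase, which commits fructose to its breakdown. The brighter of its probes ran from 8.34 over 8.87 to 9.28 in the labelled controls and from 9.51 over 9.89 to 10.36 in the labelled mutants. The lowest mutant, mutant 4, lay above the highest control, control 10. Khk rose 2.00-fold, a difference of 1.00 ± 0.12 with a 95% interval of 0.75 to 1.25 (limma adjusted p = 1.44e-06). The other Khk probe ran from 7.85 over 8.34 to 8.62 and from 8.63 over 9.37 to 9.71. It gave a difference of 1.03 ± 0.12 (limma adjusted p = 4.75e-07), again without overlap, so both probes of the gene changed alike.

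Fbp1 encodes fructose 1,6-bisphosphatase, a step of gluconeogenesis. It ran from 9.64 over 10.62 to 11.30 in the labelled controls and from 9.62 over 10.39 to 11.04 in the labelled mutants. These ranges nearly coincide. The difference of -0.27 ± 0.19 did not pass (95% interval -0.66 to 0.12, limma adjusted p = 0.353). A further probe named both Fbp1 and Fubp3 and was not used.

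Khk and Fbp1 rose and fell together from array to array within each genotype, although only Khk differed between the genotypes. With genotype means removed, Pearson r was 0.83 over 21 arrays (permutation p = 5e-05, the smallest that 20000 draws can give, adjusted p = 0.0014 over 28 pairs of genes). Spearman rho was 0.85 (permutation p adjusted to 0.0014). Without the 2 arrays farthest from the median of Khk r was 0.76. It was 0.90 within the 11 labelled controls, 0.72 within the 10 labelled mutants, 0.62 in the first set of libraries and 0.95 in the second. Control 6 was lowest in its group for both genes, as mutant 8 was highest in its group for both. The other extremes differed: the highest control was control 10 for Khk and control 11 for Fbp1. The lowest mutant was mutant 4 for Khk and mutant 10 for Fbp1. All this is by the brighter Khk probe. In the other Khk probe mutant 1 was highest, and the relation of that probe to Fbp1 was not tested. No other of the 28 pairs among the 8 genes passed the adjustment. The arrays share whatever differs between dissections and RNA preparations, and the part of that in the relation was not tested.

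**Figure D3:**
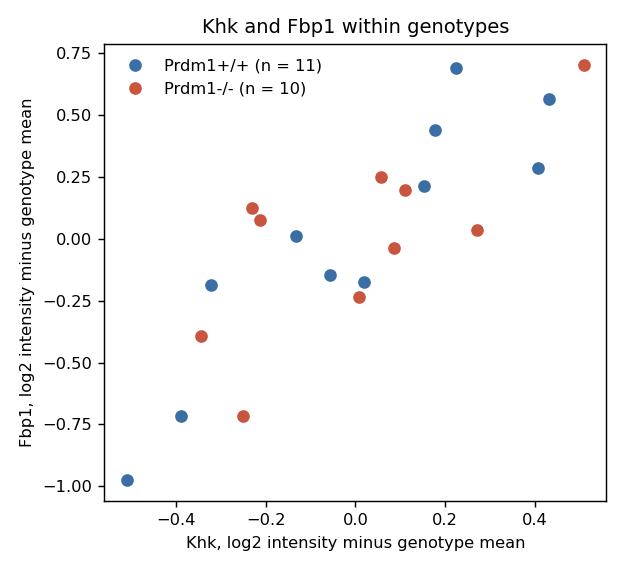
Log2 intensity of Khk (horizontal axis) against Fbp1 (vertical axis), each minus the mean of its genotype, with 11 Prdm1+/+ arrays in blue and 10 Prdm1-/- arrays in red. Points are arrays, and in both groups those with more Khk had more Fbp1 (r = 0.90 in controls, 0.72 in mutants).

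The 3 genes whose values most resembled each of the 8 were found by the same centred correlation over 21 arrays, given as a description. Khk and Fbp1 shared the sulfatase gene Arsg (r = 0.90 and 0.86) and the complement gene C8b (0.86 and 0.88). The other gene for Khk was Ttc22 (0.86), and for Fbp1 it was the intracellular hexose carrier gene Slc2a8 (0.86). Slc37a2 was most like Apcs (0.83), F10 (0.81) and Pdx1 (0.78), genes of an acute phase protein, a coagulation factor and a duodenal and pancreatic transcription factor. Slc5a1 was most like Glrx (0.89), Lpgat1 (0.87) and Lamp1 (0.85), and Slc2a2 most like Sec14l2 (0.85), Rmdn2 (0.83) and Selenoi (0.79). For Slc37a4 they were Washc1 (0.80), Nfu1 (0.80) and Surf4 (0.78). The values were lower for Slc5a4b, with Slc5a6 (0.69), Dnase1l1 (0.68) and Ada (0.68), and Slc5a4a came with H2ac18 (0.80), Mettl7b (0.75) and Fth1 (0.74). These are the highest values among 9961 genes compared, and the arrays share variation within the genotypes (32.3% in its largest pattern). No link between genes can be read from them.

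In 6 libraries, all labelled mutants (4, 6, 7, 8, 9 and 10), Car1 and Hoxd10 were both detected. Car1, a carbonic anhydrase gene, and Hoxd10 mark the caecum and colon, and neither was detected in any other library. Of 12 markers of colon and caecum 6 were tested, 3 rose and 1 fell. In all 10 labelled mutants 1810065E05Rik (3.19) lay above every control and Aqp8 (-1.58) below every control. Retnlb was detected in 5 labelled controls and 3 labelled mutants, and Hoxa13 in 8 and 9. The summed log2 intensity of all 6 tested markers was 36.0 to 45.6 in the libraries with Car1 and Hoxd10. It was 32.1 to 38.9 in the 4 other labelled mutants and 31.0 to 39.8 in the labelled controls. Controls 8, 9 and 11 had 38.0 to 39.8, and the other controls 31.0 to 38.7. That sum holds Car1 and Hoxd10 themselves, so part of its height in the 6 libraries was fixed by how they were chosen. Hoxb13, Hoxd11, Hoxd12 and Muc4 were not detected on any array. The brightest Slc2a2 probe ran from 8.92 over 9.00 to 9.25 in the 6 libraries. In the 4 other labelled mutants it ran from 9.35 over 9.44 to 9.77, without overlap. The dimmer Slc2a2 probes did overlap. The second ran from 5.63 to 6.87 in the 6 and from 6.16 to 7.68 in the 4. The third ran from 5.14 to 6.25 and from 5.63 to 6.61. Slc37a4 ran from 7.17 over 7.34 to 7.54 in the 6 and from 7.63 over 7.70 to 7.93 in the 4, without overlap. The share of all genes tested that separate the 6 from the 4 is not given here, so neither separation has a background. Other summed markers also moved with this division: enterocyte markers were at 79.2 to 80.9 in the 6 and 80.7 to 82.7 in the 4, and mesenchyme markers at 90.9 to 94.0 and 89.6 to 92.3. For Slc37a4 the 4 others lay above every labelled control (median 7.22). For the brightest Slc2a2 probe the controls (median 9.19) overlapped both sets of mutants.

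Without these 6 libraries, 6 of the 8 genes passed. This fit was chosen after seeing the data and has 4 labelled mutants, and fewer probes changed in it than over all libraries. The share of all genes passing in this fit is not given here, so the count of 6 has no background to be read against. Slc2a2, read from its brightest probe, then differed by 0.33 (limma adjusted p = 0.0247) and Slc37a4 by 0.48 (limma adjusted p = 0.0107). Slc5a4b (1.61), Slc5a4a (1.25), Khk (1.03) and Slc37a2 (-1.79) still passed. Slc5a1 (0.24, limma adjusted p = 0.340) and Fbp1 (-0.30, limma adjusted p = 0.540) still did not. The part of tissue from the large intestine, or of the other markers, in these values was not tested.

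**Figure D4:**
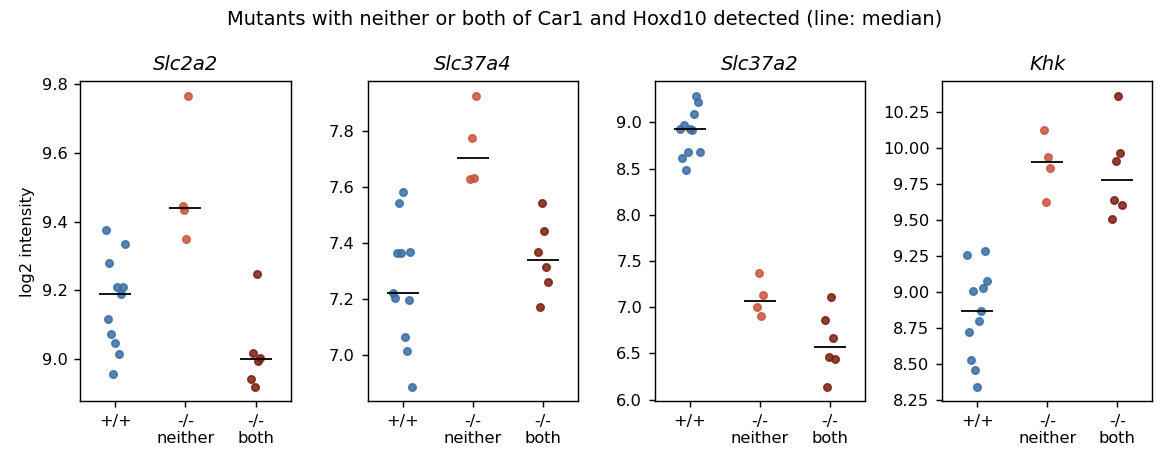
Log2 intensity (vertical axes, each with its own range) of Slc2a2, Slc37a4, Slc37a2 and Khk in 11 Prdm1+/+ arrays, in the 4 Prdm1-/- arrays with neither Car1 nor Hoxd10 detected and in the 6 with both. Points are arrays and lines are medians. Each gene is shown by its brightest probe. Slc2a2 and Slc37a4 are lower in the 6 arrays with both than in the 4 with neither, and Khk stands above every control in all 10.

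Other enzymes of fructose breakdown, glycolysis and gluconeogenesis were read from a list of 29 genes, of which 17 were tested. Of these 8 rose, 2 fell and 7 did not pass, with a median difference of 0.11 against 0.01 over all genes tested. That is 58.8% passing, beside 23.2% of all genes. With median scaling 5 rose and 2 fell. Counts of 5 and 6 of the 17 passed within the first set of libraries and without the 6 libraries with Car1 and Hoxd10. Fewer probes changed in each of these fits, with median scaling as well. The share of all genes passing in them is not given here, so the 23.2% is not their background. Tkfc, triokinase, which acts after ketohexokinase, ran from 8.57 over 8.89 to 9.12 in the labelled controls and from 9.16 over 9.47 to 9.64 in the labelled mutants, without overlap. It rose 1.45-fold (0.53 ± 0.07, limma adjusted p = 6.54e-06). The fructose bisphosphate aldolases Aldoa (0.54 ± 0.06, limma adjusted p = 3.31e-07) and Aldoc (0.57 ± 0.10, limma adjusted p = 0.000212) rose as well. Within the first set of libraries Aldoc did not pass (0.45, limma adjusted p = 0.0551).

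Phosphofructokinase drives glycolysis forward, and its 3 subunit genes Pfkm (0.42 ± 0.06), Pfkl (0.39 ± 0.09) and Pfkp (0.37 ± 0.07) rose (limma adjusted p = 3.45e-05, 0.00238 and 0.000338). Their dimmest probes did not pass, with differences of 0.07 for Pfkm, -0.03 for Pfkl and 0.20 for Pfkp (limma adjusted p = 0.748, 0.892 and 0.386). With median scaling Tkfc, Aldoa, Aldoc and Pfkm were among the 5 rises of the list, so Pfkl and Pfkp did not both pass there. Pfkfb4, which sets the level of a phosphofructokinase activator, fell (-0.45 ± 0.10, limma adjusted p = 0.00128). On the side of glucose production Fbp2, the muscle form of fructose 1,6-bisphosphatase, fell by 0.20 on the log2 scale (limma adjusted p = 0.0189), with 6 labelled mutants below every control. That call was lost with the deposited processed values and with the replicate block, where Pfkfb4 was the only fall of the list. G6pc, the glucose 6-phosphatase subunit, ran from 8.21 over 9.24 to 9.75 in the labelled controls and from 7.48 over 8.86 to 9.63 in the labelled mutants, without passing (-0.26 ± 0.25, limma adjusted p = 0.535). Pck1, phosphoenolpyruvate carboxykinase, was detected in 5 labelled controls and 4 labelled mutants (-0.10 ± 0.15, limma adjusted p = 0.714).

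**Figure D5:**
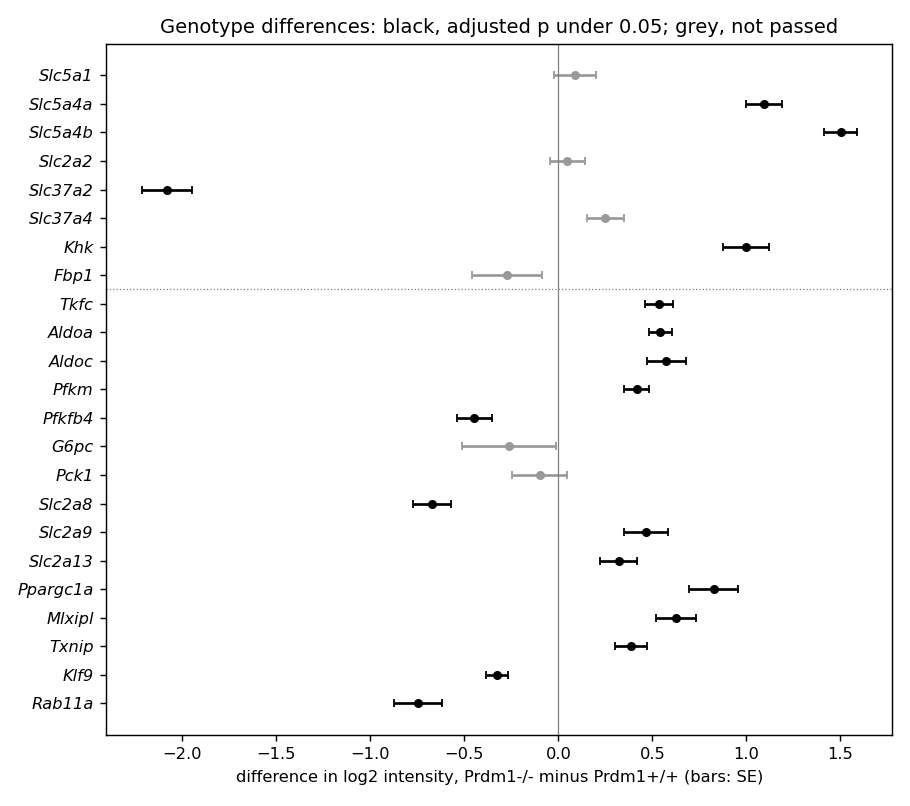
Difference in log2 intensity, labelled mutants minus labelled controls (horizontal axis), with SE as bars, for the 8 genes tested above the dotted line and the named genes of the other lists below it. Black marks an adjusted p under 0.05. Slc37a2 lies farthest to the left at -2.08 and Slc5a4b farthest to the right at 1.50.

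Of 21 further carrier genes of the same families 13 were tested, and 2 rose, 1 fell and 10 did not pass, with a median of -0.04. The share passing, 23.1%, was near the 23.2% of all genes. Slc2a8 encodes GLUT8, a carrier of inner membranes for glucose and fructose. It ran from 6.51 over 6.94 to 7.36 in the labelled controls and from 5.98 over 6.32 to 6.59 in the labelled mutants, where only the upper mutants reached the lower controls, and fell 1.59-fold (-0.67 ± 0.10, limma adjusted p = 2.63e-05). Its second probe fell too (-0.25). Slc2a9, a urate carrier of the same family, rose (0.47 ± 0.12, limma adjusted p = 0.00587), as did the inositol carrier gene Slc2a13 (0.32 ± 0.10, limma adjusted p = 0.0226). Both calls were lost in part of the alternatives: Slc2a9 had adjusted p = 0.283 within the first set of libraries and 0.0835 without the 6 libraries with Car1 and Hoxd10. Slc2a13 had adjusted p = 0.193 with median scaling, 0.148 and 0.189 within the sets, and 0.478 without those 6 libraries (difference 0.19).

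Of 20 genes of sugar sensing and its regulation 12 were tested, and 3 rose, 3 fell and 6 did not pass, with a median of 0.01. That is 50% passing, beside 23.2% of all genes. Mlxipl, which encodes the carbohydrate response factor ChREBP, ran from 7.24 over 7.62 to 8.14 in the labelled controls and from 7.81 over 8.29 to 8.67 in the labelled mutants. The groups overlapped, and it rose 1.54-fold (0.63 ± 0.11, limma adjusted p = 0.000146). In its second probe the rise was smaller (0.34, limma adjusted p = 0.0117). Of the known ChREBP targets on the list, Txnip rose (0.39 ± 0.08, limma adjusted p = 0.00155) and Arrdc4 fell (-0.32 ± 0.09, limma adjusted p = 0.0130). Khk is also known as a ChREBP target. The part of Mlxipl in the differences of these or other genes was not tested. The coactivator gene Ppargc1a rose (0.83 ± 0.13, limma adjusted p = 4.68e-05). Rab11a, whose product moves vesicles to the brush border and is known to act in the induction of GLUT5 by fructose, fell (-0.75 ± 0.13, limma adjusted p = 0.000122). Klf9, a gene of the response to thyroid hormone and glucocorticoids, fell too (-0.33 ± 0.06, limma adjusted p = 0.000289). Without the 6 libraries with Car1 and Hoxd10 the calls of Txnip (0.27), Klf9 (-0.23) and Rab11a (-0.50) were lost, at limma adjusted p = 0.120, 0.0518 and 0.0633. Only Mlxipl and Ppargc1a still passed there, so the call of Arrdc4 was lost too, as it was with the replicate block. Txnip (0.28, adjusted p = 0.162) and Klf9 (-0.28, adjusted p = 0.0639) did not pass in the limma fit within the second set of libraries either.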

How the data were processed

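Total RNA was made into biotinylated cRNA and hybridised to bead arrays, per the labels' protocols, and the submitters' processing notes name GenomeStudio 2009.2. The deposited raw table holds 1 linear intensity per probe and array without background subtraction, beside the authors' detection p-value from negative control beads. A second deposited table of processed intensity was used as an alternative. It followed the raw values of the same array along a straight line, so it is linear, uncentred and higher for brighter probes, but its normalisation is not named.

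Samples were grouped by title. Limma 3.58.1 under R 4.3.3 was used: neqc (normexp background on detection p-values, offset 16, quantile normalisation, log2), then lmFit and eBayes with genotype alone. Probes with a detection p under 0.01 on at least 5 of 21 arrays were tested, 16641 of 45281. A gene was read from its tested probe with the highest mean. Of the 14 probes of the 9 genes 11 were tested. Where no array of a group detected a probe, the fold is a bound, against the higher per array of the lowest detected signal and the dim probe's own. The fit was tested on simulated data. Labels call the arrays biological replicates and name no litter, and the number of arrays limits precision. Permutation tests were two-sided with 100000 draws, or 20000 for correlations.

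The named genes were the 9; Tkfc, G6pc, Pck1, Txnip and Mlxipl; up to 5 changed genes with the largest difference per list; the 3 genes most like each tested one; and Sis, Prdm1, Vil1 and markers where a result was set beside them, which was not done for Sis. Pfkl, Pfkp, Fbp2 and Arrdc4 were named after their values were seen. A further gene of that rule is not reported here. The genes, lists and tests were chosen with earlier results of these data known. Alternatives were median scaling, no background correction, a stricter and no probe filter, processed values, array weights, the mean over probes, a replicate block and leaving out each library.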

Additional observations from a re-analysis of the deposited data

How the results depend on the processing

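Slc5a4a, Slc5a4b, Slc37a2 and Khk kept their direction and passed the threshold under every alternative run, with a largest adjusted p of 0.000709, 3.55e-05, 0.000117 and 0.00229. Differences ran from 0.54 to 1.25 for Slc5a4a, 1.14 to 1.70 for Slc5a4b, -2.25 to -1.73 for Slc37a2 and 0.91 to 1.06 for Khk. Of the 8 genes 4 passed under every alternative named in the processing other than leaving out 1 library (4 to 5). Slc5a1 and Slc2a2, which did not pass, changed sign with median scaling (-0.0066 and -0.046), Slc2a2 with the mean over its probes (-0.034) and without mutant 5 (-0.013, in a range up to 0.081). Leaving out 1 library gave 3161 to 3536 changed probes, 3 to 5 other carriers (5 without control 1 or mutant 1) and 8 to 10 fructose and gluconeogenesis genes. Without background correction 5 other carriers passed.

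Chosen after seeing the data were fits with the library set as a term, within each set, without the 6 libraries with Car1 and Hoxd10 and without controls 8, 9 and 11. Against 3485 changed probes over all libraries, these fits gave counts of their own of 2102 within the first set, 1832 within the second and 1881 without the 6 libraries, each with fewer samples. Fructose and gluconeogenesis genes passing were 5 in the first set and 6 without the 6 libraries, other carriers 1 and 1, and sensing genes 3 in the second set and 2 without the 6 libraries. Slc2a2 was at -0.0028 in the first set, Slc5a1 at -0.045 and Pck1 at 0.023 in the second. The rise of Slc5a4b was 1.24 in the first set and 1.70 in the second, a difference that did not pass over all probes (limma adjusted p = 0.99989).

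Replicate numbers do not pair the arrays: same-numbered libraries correlated at -0.25 to 0.30, 6 of 10 pairs over 0.1, and 0 controls were best matched by their own number. With the replicate block 3080 probes, 4 of the 8 genes and 7 fructose and gluconeogenesis genes passed. Limits are the single detected probe for Slc5a1, Slc5a4a, Slc5a4b, Slc37a2, Slc37a4 and Fbp1, signals near background for Slc5a4a and none for Slc2a5.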
